A study of Homo sapiens with 23 samples.

Results

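The 44 genes described here make up the unfolded protein response and the protein folding machinery of the endoplasmic reticulum (ER). They were taken as a list of symbols and matched in the symbol column of a table of raw counts, where all 44 were found among 28395 genes. All 44 also passed the filter on low counts, which left 16468 genes for testing. The list holds the stress sensors and XBP1 (5 genes), chaperones and their cofactors (14 genes), disulfide and prolyl isomerases (11 genes), genes of ER-associated degradation (12 genes), and the pair WFS1 and PPP1R15A.

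The study sequenced RNA of H929, MM1S, OPM2 and RPMI-8226 cells, 4 established human lines of multiple myeloma, a cancer of plasma cells. In each line an inducible guide RNA targeted IRF4 (Irf4 sgRNA), or the guide was the one called EV, a name the labels do not explain. Every culture, EV included, received doxycycline for 48 hours to switch on its guide, and column names of the log2 RPKM tables carry the word Cas9. There were 3 libraries per guide and line, except for the MM1S EV group with 2 (replicates 2 and 3), and 23 in all. Each line is a single line with a single IRF4 guide (21B in the titles), the libraries are of whole cultures, and no source used here says that replicates came from different cultures. The p-values therefore rest on a spread between samples that may be purely technical.

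The ER is where secreted and membrane proteins fold, and plasma cells, from which myeloma arises, load it with immunoglobulin. When unfolded chains build up, 3 kinds of sensor in the ER membrane respond. ERN1 (IRE1) splices the messenger of XBP1 so that it encodes an active transcription factor, EIF2AK3 (PERK) slows translation, and ATF6 and ATF6B release transcription factors by cleavage. Their targets include the chaperones, the isomerases that form and rearrange disulfide bonds or turn prolyl peptide bonds between cis and trans, and the proteins that pull misfolded chains out of the ER for destruction. XBP1 is required for plasma cells to form, and IRF4 is a transcription factor on which myeloma cells depend.

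The RNA of the guide's target, IRF4, was reduced but not lost, and the reduction was smallest in OPM2. These libraries hold no protein measurement, so how much IRF4 protein remained is not known from them. IRF4 had 579, 773 and 855 CPM with the IRF4 guide against 2182, 2219 and 2196 CPM with EV in H929. IRF4 in MM1S stood at 279, 287 and 228 CPM with the IRF4 guide against 724 and 641 CPM with EV, where CPM are counts scaled to the library total and normalised by trimmed means (TMM), the scale of all values per library. These libraries with the IRF4 guide all lay below those with EV. IRF4 in OPM2 was 890.2, 1331 and 897 CPM with the IRF4 guide against 1569.7, 2031 and 1319 CPM with EV, and the groups overlapped. IRF4 in RPMI-8226 was 193, 250.1 and 187 CPM with the IRF4 guide against 482, 461 and 409 CPM with EV, with no overlap. The log2 fold changes, IRF4 guide over EV, were -1.58 (SE 0.18, adjusted p = 7.83e-07) in H929, -1.37 (SE 0.20, adjusted p = 3.96e-05) in MM1S, -0.66 (SE 0.18, adjusted p = 0.00675) in OPM2 and -1.10 (SE 0.18, adjusted p = 0.000173) in RPMI-8226. All p-values are from edgeR's quasi-likelihood test, adjusted over the 16468 genes within each contrast by Benjamini-Hochberg, and a gene is called at an adjusted p under 0.05. The fall was smaller in OPM2 than in the mean of the other 3 lines, by 0.69 (SE 0.21, adjusted p = 0.0389) on the log2 scale.

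Library totals ran from 6907390 to 28486960 counts. All 8 plasma cell markers were detected in every group, with SLAMF7 lowest at 1.30 to 2.49 CPM with the IRF4 guide and 0.782 to 1.32 CPM with EV in RPMI-8226. Of the 5 T and NK cell markers, the summed level was 111 to 126 CPM with the IRF4 guide and 13.5 to 15.6 CPM with EV in H929, mostly CD3E, while CD8A was at 0 in all 3 H929 EV libraries. In the other lines that sum was at most 12.1 CPM with the IRF4 guide and 5.35 CPM with EV. The 4 myeloid markers summed to at most 16.2 CPM with the IRF4 guide and 3.29 CPM with EV, both in RPMI-8226. The 4 stromal and epithelial markers reached 77.3 to 95.4 CPM with the IRF4 guide and 111 to 126 CPM with EV in RPMI-8226, where EPCAM made up most of the sum and COL1A2 was at 0. The erythroid and megakaryocyte list summed to at most 4.11 CPM with the IRF4 guide and 3.57 CPM with EV. The part of these markers in the results that follow was not tested.

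Promoter sequences are shown first because the best-known binding sites of ATF6 and XBP1 are short and recognisable. The ER stress element (ERSE) reads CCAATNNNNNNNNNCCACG and its shorter relative, ERSE-II, reads ATTGGNCCACG. Both were searched on both strands of RefSeq promoter windows (GRCh38.p14) that run from 250 bases before each annotated start to 50 bases after it. Windows were found for 41 of the 44 genes. DERL1, DERL3 and PDIA3 had none. An ERSE was present in 7 of the 41 genes, against 25 of all 27305 genes with windows (0.0916%), and an ERSE-II in 3, against 19 genes (0.0696%). Either element was present in 10 of the 41, against 0.161% of all genes with windows, and the 10 include several main chaperones and XBP1 itself. The sequences below, shown because these 10 genes are compared with the rest further on, read in the direction of the element, with the element in capitals and 10 bases on each side, and with the number of bases between the element and an annotated start.
CALR ERSE, chr19:12938374-12938412, minus strand, 206 bases before the start: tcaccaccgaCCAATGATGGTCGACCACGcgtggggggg
CANX ERSE, chr5:179698768-179698806, plus strand, 132 bases before the start: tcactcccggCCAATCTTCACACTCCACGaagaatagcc
CRELD2 ERSE, chr22:49918544-49918582, minus strand, 61 bases before the start: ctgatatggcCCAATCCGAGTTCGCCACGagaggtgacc
HSP90B1 ERSE, chr12:103930206-103930244, plus strand, 175 bases before the start: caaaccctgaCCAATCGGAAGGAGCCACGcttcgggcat
HSP90B1 ERSE, chr12:103930311-103930349, minus strand, 70 bases before the start: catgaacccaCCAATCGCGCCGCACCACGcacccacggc
HSPA5 ERSE, chr9:125241381-125241419, minus strand, 47 bases before the start: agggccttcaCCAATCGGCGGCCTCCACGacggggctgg
PDIA6 ERSE, chr2:10812843-10812881, minus strand, 67 bases before the start: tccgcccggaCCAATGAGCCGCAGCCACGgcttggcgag
XBP1 ERSE, chr22:28800593-28800631, minus strand, 33 bases before the start: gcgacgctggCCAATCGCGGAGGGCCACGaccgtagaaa
HERPUD1 ERSE-II, chr16:56932015-56932045, plus strand, 106 bases before the start: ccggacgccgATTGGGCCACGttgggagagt
HYOU1 ERSE-II, chr11:119057264-119057294, plus strand, 68 bases before the start: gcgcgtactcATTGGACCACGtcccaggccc
HYOU1 ERSE-II, chr11:119057370-119057400, plus strand, 174 bases before the start: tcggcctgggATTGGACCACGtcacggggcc
SDF2L1 ERSE-II, chr22:21642104-21642134, minus strand, 177 bases before the start: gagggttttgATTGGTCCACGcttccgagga

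The 250 bases before the start of HSPA5, the gene of the central ER chaperone, are printed to show the context of one element. They lie on the minus strand at chr9:125241344-125241593 of GRCh38.p14 and read towards the start, with the ERSE in capitals.
HSPA5 promoter: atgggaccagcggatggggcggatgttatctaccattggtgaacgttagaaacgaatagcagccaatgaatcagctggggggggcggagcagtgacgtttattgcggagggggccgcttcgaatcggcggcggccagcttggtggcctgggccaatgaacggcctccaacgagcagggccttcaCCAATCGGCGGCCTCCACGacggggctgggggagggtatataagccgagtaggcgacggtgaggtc
The element ends 47 bases before the start. Other motifs were also looked for on both strands. The UPRE core TGACGTGG was found in 5 of the 41 genes (DNAJC10, HYOU1, TXNDC11, TXNDC5 and VCP), against 0.927% of all genes with windows; in HYOU1 it overlaps an ERSE-II. The ISRE core GAAANNGAAA and the EICE core GGAANNGAAA, letters tied to IRF family binding, were found in none of the 41, against 4.38% and 3.47% of all genes with windows. A match is a description of these letters and not evidence of binding, and no match covers this window alone.

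The stress sensors were not raised or lowered together. On the average of the 4 lines, ATF6B, ERN1 and ATF6 were called higher with the IRF4 guide, XBP1 was called lower, and EIF2AK3 was not called. Over all 16468 genes tested, 32.6% were called higher and 25.1% lower on this average. ATF6B was higher in every line. XBP1 fell in H929 and OPM2, and EIF2AK3 fell in OPM2.

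XBP1, the transcription factor of the IRE1 branch, was the most abundant of the 44 genes per length in the EV libraries of H929 and OPM2. XBP1 counts were 2381, 2476 and 2731 CPM with the IRF4 guide against 3354, 3345 and 3387 CPM with EV in H929. XBP1 in OPM2 was 979.9, 1105 and 1285 CPM with the IRF4 guide against 1955, 2177 and 2040.4 CPM with EV. The libraries with the IRF4 guide lay below those with EV in both lines. XBP1 in MM1S was 662, 654 and 588 CPM with the IRF4 guide against 588 and 558 CPM with EV, with the IRF4 guide just above EV, and in RPMI-8226 it was 410.1, 346 and 399 CPM with the IRF4 guide against 449.9, 405 and 405 CPM with EV, where the groups overlapped. The log2 fold changes were -0.41 (SE 0.08, adjusted p = 0.000104) in H929, -0.87 (SE 0.08, adjusted p = 1.39e-09) in OPM2, 0.15 (SE 0.10, adjusted p = 0.242) in MM1S and -0.13 (SE 0.08, adjusted p = 0.266) in RPMI-8226. The effect differed between lines (F test with 3 degrees of freedom, adjusted p = 5.77e-07), as it did for 33 of the 44 genes and for 48% of all genes. The gene counts do not separate spliced from unspliced XBP1.

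ERN1, the sensor that splices XBP1, had 172, 203 and 187 CPM with the IRF4 guide against 100.2, 112 and 141 CPM with EV in H929. ERN1 in MM1S was 223, 214 and 215 CPM with the IRF4 guide against 95.3 and 103 CPM with EV. In these lines the IRF4 guide libraries lay above all EV libraries. ERN1 in OPM2 was 42.1, 45.7 and 51.8 CPM with the IRF4 guide against 39.6, 47.0 and 53.5 CPM with EV, with complete overlap, and in RPMI-8226 it was 120.3, 80.4 and 102 CPM with the IRF4 guide against 92.1, 74.2 and 79.1 CPM with EV, with partial overlap. Fold changes on the log2 scale were 0.66 (SE 0.14, adjusted p = 0.000218) in H929, 1.13 (SE 0.16, adjusted p = 8.01e-06) in MM1S and 0.30 (SE 0.14, adjusted p = 0.0971) in RPMI-8226. In OPM2 the change was 0.00 to 2 decimals. The OPM2 effect minus the mean of the other lines was -0.70 (SE 0.16, adjusted p = 0.00573).

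EIF2AK3, the kinase that slows translation, had 74.3, 76.9 and 86.3 CPM with the IRF4 guide against 122, 119.7 and 112 CPM with EV in OPM2, where it fell by 0.58 (SE 0.09, adjusted p = 8.37e-06) on the log2 scale. EIF2AK3 in H929 was 332, 334 and 341 CPM with the IRF4 guide against 334, 329 and 379.6 CPM with EV. EIF2AK3 in MM1S was 144, 125 and 113 CPM with the IRF4 guide against 116 and 114 CPM with EV, and in RPMI-8226 it was 48.1, 35.1 and 45.2 CPM with the IRF4 guide against 37.1, 35.9 and 39.6 CPM with EV. In these 3 lines the groups overlapped and the gene was not called. The effect in OPM2 minus the mean of the other lines was -0.67 (SE 0.11, adjusted p = 5.18e-05).

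ATF6, the sensor cleaved in the Golgi, was called in OPM2 alone. ATF6 counts were 269.7, 264 and 245 CPM with the IRF4 guide against 226, 223 and 228 CPM with EV in OPM2, with no overlap. ATF6 in H929 was 244, 266 and 253 CPM with the IRF4 guide against 247, 243 and 244 CPM with EV, and in RPMI-8226 it was 144, 141 and 152 CPM with the IRF4 guide against 142, 136 and 129 CPM with EV. ATF6 in MM1S was 165, 162 and 167 CPM with the IRF4 guide against 176 and 165 CPM with EV. In H929, MM1S and RPMI-8226 the groups overlapped. The OPM2 rise was 0.20 (SE 0.06, adjusted p = 0.00919) on the log2 scale, lost without IRF4 replicate 1 of OPM2 (adjusted p = 0.0508). The average was 0.08 (SE 0.03, adjusted p = 0.0434), and the call was lost when any of 16 of the 23 libraries was left out, with adjusted p up to 0.131, and with no filter on low counts (adjusted p = 0.170).

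ATF6B, the close relative of ATF6, had the largest rise of the 44 genes in H929. ATF6B counts were 124, 146 and 123 CPM with the IRF4 guide against 50.4, 45.8 and 57.6 CPM with EV in H929. ATF6B in MM1S was 198, 195 and 182 CPM with the IRF4 guide against 146 and 151 CPM with EV, and in OPM2 it was 125, 128 and 126 CPM with the IRF4 guide against 101, 92.0 and 97.3 CPM with EV. ATF6B in RPMI-8226 was 131, 117 and 136 CPM with the IRF4 guide against 96.5, 96.2 and 104 CPM with EV. The groups did not overlap in any line. The log2 rises were 1.34 (SE 0.08, adjusted p = 2.61e-14) in H929, 0.37 (SE 0.09, adjusted p = 0.0018) in MM1S, 0.38 (SE 0.08, adjusted p = 0.000278) in OPM2 and 0.38 (SE 0.08, adjusted p = 0.000507) in RPMI-8226, and the H929 effect exceeded the mean of the other lines by 0.97 (SE 0.10, adjusted p = 4.05e-09). ATF6B exons overlap those of TNXB on the same strand in the annotation, and no sources used here state whether counting removed shared reads.

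**Figure D1:**
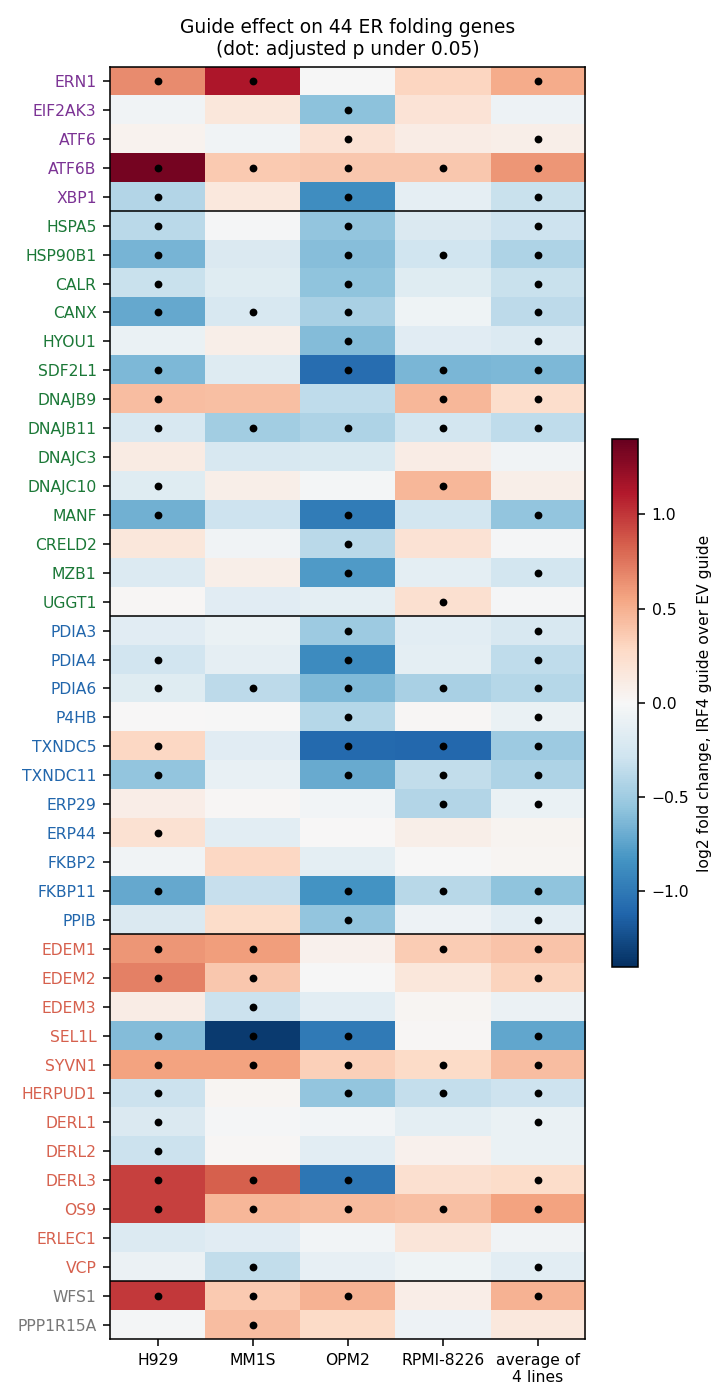
Log2 fold change of the IRF4 guide over EV for all 44 genes (rows, coloured by role) in each line and on the average, blue for lower and red for higher; dots mark adjusted p under 0.05. ATF6B, SYVN1 and OS9 are red in every line, and DNAJB11 and PDIA6 blue in every line.

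The chaperones were lower far more often than higher. On the average of the lines 9 of 14 were called lower and 1 higher, with a median log2 fold change of -0.27 over the 14, against 0.11 over all genes tested. Of all genes, 25.1% were called lower and 32.6% higher on this average. In OPM2, 10 were called lower and none higher, and in H929, 8 lower and 1 higher. MM1S had 2 called lower and none higher, and RPMI-8226 had 3 of each. The background of all genes called was 23.3% higher and 20.2% lower in OPM2, 32.9% higher and 26.1% lower in H929, 19.4% higher and 15.2% lower in MM1S, and 19.2% higher and 14.7% lower in RPMI-8226.

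HSPA5 (BiP), the central ER chaperone and the regulator of all 3 sensors, had 1127, 1086 and 1065 CPM with the IRF4 guide against 1474, 1331 and 1468 CPM with EV in H929. HSPA5 in OPM2 was 416, 444 and 428 CPM with the IRF4 guide against 653, 624 and 614 CPM with EV. The groups did not overlap in either line. HSPA5 in MM1S was 1018, 947 and 766 CPM with the IRF4 guide against 975 and 871 CPM with EV, and in RPMI-8226 it was 1691, 1279 and 1626 CPM with the IRF4 guide against 1893, 1711 and 1687 CPM with EV, with overlap in both. Log2 fold changes were -0.38 (SE 0.09, adjusted p = 0.000626) in H929, -0.55 (SE 0.09, adjusted p = 1.25e-05) in OPM2, -0.02 (SE 0.10, adjusted p = 0.955) in MM1S and -0.20 (SE 0.09, adjusted p = 0.0858) in RPMI-8226. The RPMI-8226 fall was called with RLE size factors, DESeq2, no filter on low counts or either replicate block, and without its IRF4 replicate 1. Adjusted p was then 0.00621 to 0.0467. The element in the HSPA5 promoter is printed above.

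SDF2L1, which holds ER clients in a folding-competent state, had the largest fall of the chaperones on the average, -0.63 (SE 0.06, adjusted p = 2.16e-10). SDF2L1 counts were 88.7, 82.1 and 65.1 CPM with the IRF4 guide against 120.5, 119 and 125 CPM with EV in H929. SDF2L1 in OPM2 was 26.3, 35.1 and 33.3 CPM with the IRF4 guide against 64.2, 71.0 and 63.6 CPM with EV, and in RPMI-8226 it was 19.8, 23.9 and 18.6 CPM with the IRF4 guide against 32.2, 32.0 and 33.0 CPM with EV. In these 3 lines the IRF4 guide libraries lay below all EV libraries. SDF2L1 in MM1S was 44.6, 42.2 and 33.3 CPM with the IRF4 guide against 47.2 and 44.3 CPM with EV, with the groups overlapping. Log2 fold changes were -0.63 (SE 0.11, adjusted p = 1.52e-05) in H929, -1.07 (SE 0.11, adjusted p = 1.05e-08) in OPM2, -0.64 (SE 0.12, adjusted p = 0.000123) in RPMI-8226 and -0.18 (SE 0.14, adjusted p = 0.342) in MM1S. SDF2L1 is one of the genes with an ERSE-II.

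DNAJB9 is the J-domain cochaperone that restrains IRE1 through BiP. In the main fit (edgeR, no replicate block) it alone of the 14 chaperones was called higher on the average, at 0.24 (SE 0.09, adjusted p = 0.031). DNAJB9 counts were 171, 179 and 188 CPM with the IRF4 guide against 111, 121 and 167 CPM with EV in H929, and in MM1S they were 179, 122 and 127 CPM with the IRF4 guide against 112 and 103 CPM with EV. The IRF4 guide libraries lay above EV in both lines. DNAJB9 in RPMI-8226 was 99.7, 59.3 and 94.4 CPM with the IRF4 guide against 64.4, 57.3 and 61.2 CPM with EV, where the groups overlapped, and in OPM2 it was 41.1, 43.3 and 39.6 CPM with the IRF4 guide against 57.6, 51.9 and 48.2 CPM with EV, with the IRF4 guide below EV. The log2 fold changes were 0.43 (SE 0.17, adjusted p = 0.0417) in H929, 0.42 (SE 0.20, adjusted p = 0.12) in MM1S, 0.47 (SE 0.18, adjusted p = 0.0493) in RPMI-8226 and -0.35 (SE 0.18, adjusted p = 0.133) in OPM2. The call was lost without 8 of 23 single libraries in H929, with adjusted p up to 0.178, and without 18 in RPMI-8226, with adjusted p up to 0.211, and in RPMI-8226 also with each line fitted alone, with RLE size factors and with the deposited log2 RPKM. On the average it was lost without 9, with adjusted p up to 0.0742. In OPM2, with the replicate number as a block, it was -0.35 with adjusted p = 0.00893.

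DNAJB11 and PDIA6 were the 2 genes called lower in all 4 lines in the main fit. FKBP11, described below, was called lower in all 4 under several other settings. Over all genes 3.83% were called lower in all 4 lines and 5.14% higher in all 4, and 5 of the 44 genes were called the same way in all 4. DNAJB11, a J-domain cofactor of BiP, had 182, 158 and 176 CPM with the IRF4 guide against 215, 179.9 and 208 CPM with EV in H929, where the groups overlapped. DNAJB11 in MM1S was 155, 142 and 118 CPM with the IRF4 guide against 205 and 185 CPM with EV. DNAJB11 in OPM2 was 83.5, 85.5 and 78.6 CPM with the IRF4 guide against 121, 107 and 106 CPM with EV, and in RPMI-8226 it was 155, 129 and 139 CPM with the IRF4 guide against 179, 163 and 161 CPM with EV. In MM1S, OPM2 and RPMI-8226 the IRF4 guide libraries lay below all EV libraries. Log2 falls were -0.23 (SE 0.09, adjusted p = 0.0325) in H929, -0.49 (SE 0.10, adjusted p = 0.00035) in MM1S, -0.43 (SE 0.09, adjusted p = 0.000295) in OPM2 and -0.25 (SE 0.09, adjusted p = 0.0298) in RPMI-8226. In H929 the call was lost without IRF4 replicate 2, EV replicate 1 or EV replicate 3 (adjusted p 0.0569 to 0.148), and in RPMI-8226 without IRF4 replicate 2 or 3 or EV replicate 1 or 2 (adjusted p 0.0513 to 0.143). The deposited log2 RPKM gave no call in either line (adjusted p = 0.108 in H929 and 0.0842 in RPMI-8226), and DESeq2 and RLE size factors gave none in H929.

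CANX (calnexin), the membrane-bound lectin that retains unfolded glycoproteins, had 1862, 1598 and 1829 CPM with the IRF4 guide against 3094, 2756 and 2853 CPM with EV in H929. CANX in OPM2 was 707, 699.8 and 700.0 CPM with the IRF4 guide against 977, 955 and 949.6 CPM with EV, and in MM1S it was 1601, 1580.1 and 1427 CPM with the IRF4 guide against 1833 and 1745 CPM with EV. In all 3 lines the IRF4 guide libraries were the lower ones. CANX in RPMI-8226 was 1502, 1332 and 1434 CPM with the IRF4 guide against 1533, 1485 and 1418 CPM with EV, with overlap. The log2 fold changes were -0.72 (SE 0.07, adjusted p = 4.09e-10) in H929, -0.45 (SE 0.07, adjusted p = 4.96e-06) in OPM2, -0.22 (SE 0.08, adjusted p = 0.0283) in MM1S and -0.06 (SE 0.07, adjusted p = 0.586) in RPMI-8226. In MM1S the call was lost without IRF4 replicate 3 or either EV library (adjusted p 0.0698 to 0.219), or with no filter on low counts (0.0512).

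DNAJC10, a J-domain protein with a disulfide reductase role, was called both ways. DNAJC10 counts were 106, 128 and 116 CPM with the IRF4 guide against 133, 134 and 127 CPM with EV in H929, with overlap, and in RPMI-8226 they were 592, 553 and 581 CPM with the IRF4 guide against 442, 424 and 385 CPM with EV, with none. DNAJC10 in MM1S was 370.0, 369.9 and 354 CPM with the IRF4 guide against 352 and 336 CPM with EV, and in OPM2 it was 136, 150.0 and 131 CPM with the IRF4 guide against 140.3, 152 and 134 CPM with EV. In MM1S the IRF4 guide libraries lay above EV without a call, and in OPM2 the groups overlapped. As log2 fold changes, the differences were -0.17 (SE 0.08, adjusted p = 0.0469) in H929 and 0.46 (SE 0.07, adjusted p = 1.23e-05) in RPMI-8226. The H929 call was lost without 13 of 23 single libraries, with adjusted p up to 0.154, and also with DESeq2, RLE size factors, no filter on low counts and the deposited log2 RPKM. The average of DNAJC10, 0.09 (SE 0.04, adjusted p = 0.0534), was not called in the main fit. It was called higher with RLE size factors, DESeq2, either replicate block or the deposited log2 RPKM (adjusted p 0.00072 to 0.0359). Leaving out some single libraries also gave that call (0.0345 to 0.0466). Across the study 8.07% of all genes were called higher in one line and lower in another, and 3 of the 44 genes were.

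HSP90B1 (GRP94), an ER member of the HSP90 family, was called lower in H929, OPM2 and RPMI-8226, with a log2 fold change of -0.43 on the average. The RPMI-8226 call was lost without IRF4 replicate 2 or EV replicate 1 (adjusted p 0.0584 to 0.0808), and with the deposited log2 RPKM (0.242). Calreticulin (CALR), the soluble partner of calnexin, fell by 0.31 on the log2 scale in H929 and by 0.57 in OPM2. The nucleotide exchange factor HYOU1 and MZB1, a cofactor of immunoglobulin assembly in B lineage cells, were called lower in OPM2 alone, by 0.61 and 0.79, and CRELD2 fell there by 0.38. With a replicate block within each line, MZB1 was also called lower in H929 (adjusted p = 0.00817) and HYOU1 in RPMI-8226 (0.0282). That block called CRELD2 higher in RPMI-8226 (0.038). MANF, a stress-induced factor that binds BiP, fell by 0.98 in OPM2 and by 0.68 in H929. In MM1S (-0.291) and RPMI-8226 (-0.255) it was not called in the main fit. Both falls were called with no filter on low counts, either replicate block or each line fitted alone. They were also called without IRF4 replicate 1 of the line concerned, and adjusted p over these settings was 0.00112 to 0.0410. DNAJC3 was called in no line in the main fit. With a replicate block within each line it reached -0.21 in OPM2 (adjusted p = 0.0113) and -0.26 in MM1S (0.0178). With MM1S fitted alone it was -0.28 there (0.00976). UGGT1, the sensor of glycoprotein folding, was called higher in RPMI-8226, at 0.22 (SE 0.07, adjusted p = 0.0196), a call lost without IRF4 replicate 1 or 3 or EV replicate 2 of RPMI-8226 (adjusted p 0.0762 to 0.266), with no filter on low counts or with each line fitted alone, and it was lower in OPM2 with the block, at -0.14 with adjusted p = 0.0465.

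**Figure D2:**
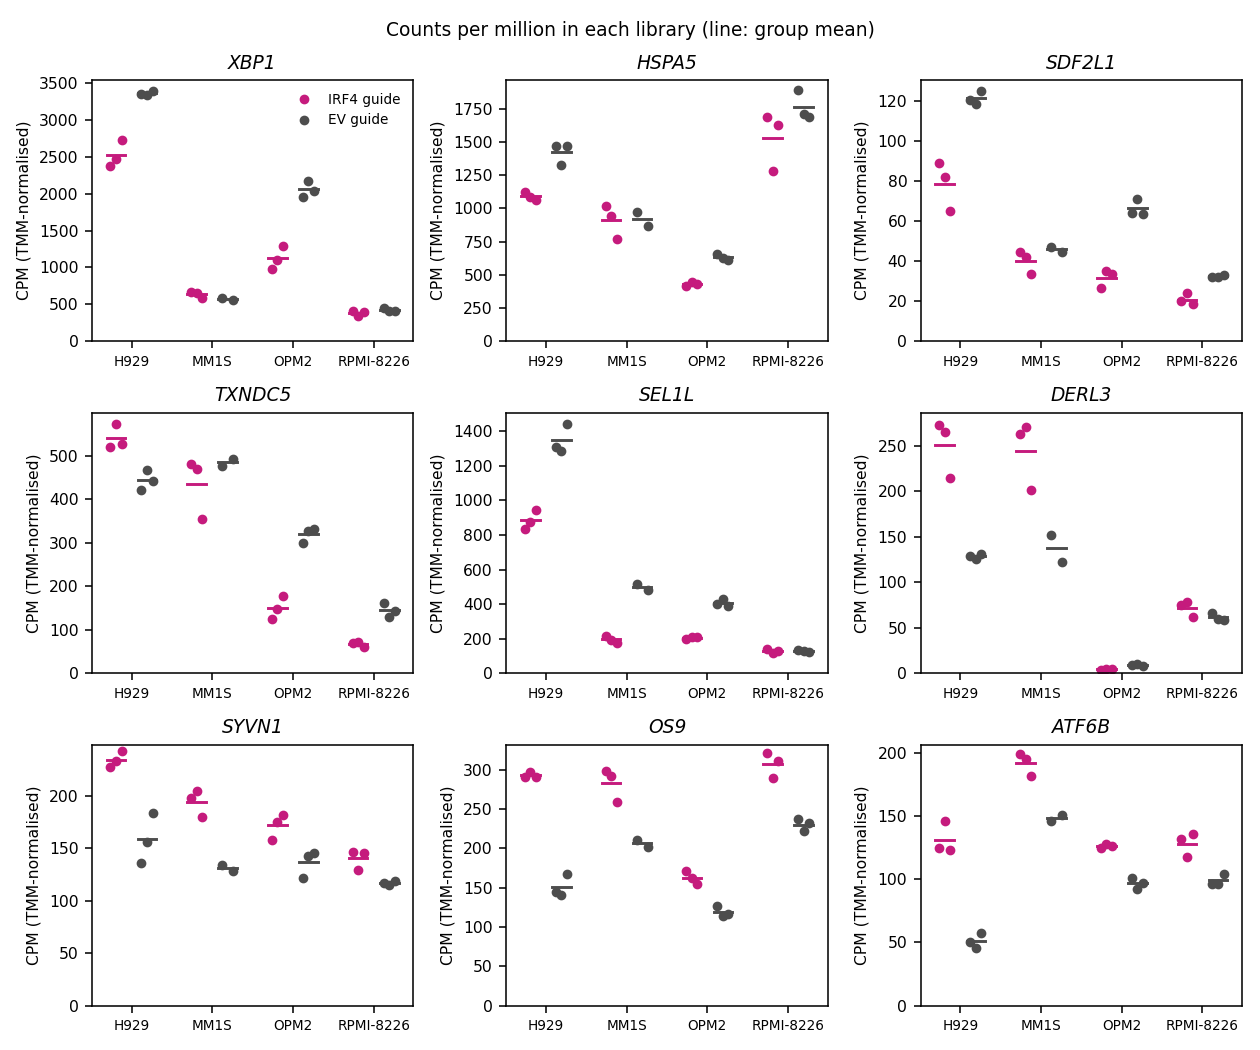
TMM-normalised CPM in each library for 9 of the genes, with the IRF4 guide (pink) left of EV (grey) in each line; the short bar is the group mean. XBP1 falls in H929 and OPM2, SEL1L in H929, MM1S and OPM2, and DERL3 is higher in H929 and MM1S and lower in OPM2.

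The isomerases were called lower in 9 of 11 cases on the average and higher in none, with a median log2 fold change of -0.22. Over all genes 25.1% were called lower and 32.6% higher, with a median of 0.11. In OPM2, 8 were called lower and in RPMI-8226, 5. H929 had 4 called lower and 2 called higher, and MM1S had 1 called lower. Of all genes, 20.2% were called lower in OPM2, 14.7% in RPMI-8226, 26.1% in H929 and 15.2% in MM1S. In H929, 32.9% of all genes were called higher. FKBP2 was called in no line in the main fit, and was called higher in MM1S without IRF4 replicate 3 (adjusted p = 0.0214).

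TXNDC5, a disulfide isomerase abundant in plasma cells, moved in opposite directions in different lines. TXNDC5 counts were 520.0, 574 and 528 CPM with the IRF4 guide against 420.5, 468 and 443 CPM with EV in H929, with the IRF4 guide above EV. TXNDC5 in OPM2 was 125, 149 and 177 CPM with the IRF4 guide against 301, 326 and 331 CPM with EV, and in RPMI-8226 it was 69.6, 72.8 and 61.4 CPM with the IRF4 guide against 162, 130.1 and 144 CPM with EV. In OPM2 and RPMI-8226 the IRF4 guide libraries lay below all EV libraries. TXNDC5 in MM1S was 481, 468 and 355 CPM with the IRF4 guide against 476 and 493 CPM with EV, with overlap. Fitted log2 fold changes were 0.28 (SE 0.11, adjusted p = 0.0254) in H929, -0.15 (SE 0.12, adjusted p = 0.358) in MM1S, -1.09 (SE 0.11, adjusted p = 9.73e-09) in OPM2 and -1.10 (SE 0.11, adjusted p = 3.19e-08) in RPMI-8226, and the difference between lines had adjusted p = 2.36e-08. The H929 call was lost without any of its 3 IRF4 guide libraries or EV replicate 1 or 3, with adjusted p of 0.0523 to 0.0959.

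PDIA6, an isomerase that also tunes the sensors, had 180.0, 194 and 209.6 CPM with the IRF4 guide against 215, 216 and 223 CPM with EV in H929. PDIA6 in MM1S was 405, 389 and 351 CPM with the IRF4 guide against 496 and 489 CPM with EV, and in OPM2 it was 262, 293 and 276 CPM with the IRF4 guide against 426, 429 and 419.6 CPM with EV. PDIA6 in RPMI-8226 was 492, 479 and 484 CPM with the IRF4 guide against 685, 656 and 656 CPM with EV. The groups did not overlap in any line, and the IRF4 guide was lower throughout. On the log2 scale the fold changes were -0.17 (SE 0.07, adjusted p = 0.0374) in H929, -0.37 (SE 0.07, adjusted p = 0.00026) in MM1S, -0.62 (SE 0.07, adjusted p = 1.32e-08) in OPM2 and -0.46 (SE 0.07, adjusted p = 3.92e-06) in RPMI-8226. The H929 call was lost without 7 of 23 single libraries, with adjusted p up to 0.113, and with RLE size factors, no filter on low counts and the deposited log2 RPKM (adjusted p 0.0718 to 0.141).

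FKBP11, a prolyl isomerase of secretory cells, had the largest fall of the isomerases on the average, -0.56 (SE 0.06, adjusted p = 1.13e-08). FKBP11 counts were 73.7, 57.1 and 64.1 CPM with the IRF4 guide against 116, 97.3 and 107 CPM with EV in H929. FKBP11 in OPM2 was 40.9, 38.2 and 38.4 CPM with the IRF4 guide against 71.8, 68.4 and 68.8 CPM with EV, and in RPMI-8226 it was 54.7, 65.6 and 45.1 CPM with the IRF4 guide against 71.0, 76.4 and 68.0 CPM with EV. FKBP11 in MM1S was 60.2, 57.1 and 40.5 CPM with the IRF4 guide against 71.1 and 62.4 CPM with EV. The IRF4 guide libraries lay below all EV libraries in every line, although the MM1S fall, -0.33 (SE 0.14, adjusted p = 0.0745), was not called in the main fit. That fall was called with RLE size factors, DESeq2, no filter on low counts, either replicate block or MM1S fitted alone (adjusted p 0.000363 to 0.0435). It was also called without some single libraries (0.0272 to 0.0499), but not with the deposited log2 RPKM. In RPMI-8226 the call was lost without IRF4 replicate 3 or EV replicate 2 (adjusted p 0.0759 to 0.104). ERP44, which retrieves thiol-bound proteins to the ER, had the highest value of the isomerases on the average, 0.04, which was not called. ERP44 counts were 106, 104 and 111 CPM with the IRF4 guide against 91.9, 91.3 and 94.7 CPM with EV in H929, and in MM1S they were 184, 187 and 187 CPM with the IRF4 guide against 206 and 207 CPM with EV. ERP44 in OPM2 was 75.4, 74.5 and 74.3 CPM with the IRF4 guide against 76.7, 71.9 and 73.9 CPM with EV, and in RPMI-8226 it was 62.7, 56.8 and 66.8 CPM with the IRF4 guide against 62.2, 58.1 and 55.2 CPM with EV. The IRF4 guide libraries lay above EV in H929 and below it in MM1S, and overlapped with EV in the other lines. It was called in H929 alone, 0.21 (SE 0.07, adjusted p = 0.00867), and not without IRF4 replicate 3 there (adjusted p = 0.0777) or with that line fitted alone (0.109). In MM1S, ERP44 was called lower with DESeq2 (adjusted p = 0.0330) and with MM1S fitted alone (0.0227).

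Of the remaining isomerases, TXNDC11 was called lower in 3 lines and PDIA4 in 2, and the others in at most 1. PDIA4, which binds BiP in chaperone complexes, fell by 0.89 on the log2 scale in OPM2 and by 0.26 in H929; the H929 call was lost without IRF4 replicate 2 (adjusted p = 0.0741) and with the deposited log2 RPKM (0.108). TXNDC11, a thioredoxin-domain protein, fell by 0.55 in H929, by 0.71 in OPM2 and by 0.35 in RPMI-8226. PDIA3, the partner of calnexin and calreticulin, fell in OPM2 by 0.50, PPIB (cyclophilin B) by 0.55 and P4HB, the protein disulfide isomerase, by 0.40. PDIA3 has pseudogenes named PDIA3P1 and PDIA3P2, with which reads may be shared. ERP29 was called lower in RPMI-8226, at -0.42 (SE 0.07, adjusted p = 1.97e-05). Its average, -0.09, was lost without 11 single libraries (adjusted p up to 0.0843), and that of P4HB, -0.10, without 5 (adjusted p up to 0.0740). With the deposited log2 RPKM the averages of ERP29, P4HB and PPIB were not called (adjusted p 0.108 to 0.325).

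Of the 12 genes of ER-associated degradation, 5 were called higher (41.7%) and 4 lower (33.3%) on the average, near the shares of all genes, 32.6% and 25.1%. The ubiquitin ligase SYVN1, the lectin OS9, the mannosidase-like proteins EDEM1 and EDEM2 and the channel component DERL3 were higher, and SEL1L, HERPUD1, DERL1 and VCP lower. H929 had 5 higher and 4 lower, MM1S 5 and 3, OPM2 2 and 3, and RPMI-8226 3 and 1, and the genes called lower were not the same in each line. Of all genes, 32.9% were called higher and 26.1% lower in H929, and 19.4% and 15.2% in MM1S. In OPM2 these shares were 23.3% and 20.2%, and in RPMI-8226 19.2% and 14.7%. DERL3 was higher in H929 and MM1S and lower in OPM2. SEL1L and SYVN1, whose proteins form one complex, went in opposite directions in H929, MM1S and OPM2.

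SYVN1, the ligase of that complex, had 228, 234 and 242 CPM with the IRF4 guide against 136, 156 and 184 CPM with EV in H929. SYVN1 in MM1S was 198, 205 and 179.6 CPM with the IRF4 guide against 134 and 129 CPM with EV, and in OPM2 it was 158, 175 and 182 CPM with the IRF4 guide against 121, 143 and 146 CPM with EV. SYVN1 in RPMI-8226 was 146, 129.8 and 145 CPM with the IRF4 guide against 117, 115 and 119 CPM with EV. The IRF4 guide libraries lay above all EV libraries in every line. The log2 rises were 0.56 (SE 0.09, adjusted p = 2.39e-06) in H929, 0.56 (SE 0.10, adjusted p = 5.89e-05) in MM1S, 0.33 (SE 0.09, adjusted p = 0.00279) in OPM2 and 0.26 (SE 0.09, adjusted p = 0.0212) in RPMI-8226. The RPMI-8226 call was lost without IRF4 replicate 1 or 3 or EV replicate 1 or 2 (adjusted p 0.0554 to 0.0980). SYVN1 shares exon positions with FAU on the same strand in the annotation.

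OS9, a lectin that delivers misfolded glycoproteins to the SEL1L complex, had 291, 297 and 291 CPM with the IRF4 guide against 145, 141 and 167 CPM with EV in H929. OS9 in MM1S was 298, 292 and 259 CPM with the IRF4 guide against 211 and 202 CPM with EV, and in OPM2 it was 171, 162 and 154 CPM with the IRF4 guide against 127, 114 and 116 CPM with EV. OS9 in RPMI-8226 was 321, 289 and 311 CPM with the IRF4 guide against 238, 221 and 232 CPM with EV. The groups did not overlap in any line. The log2 rises were 0.95 (SE 0.07, adjusted p = 3.55e-12) in H929, 0.46 (SE 0.08, adjusted p = 6.78e-05) in MM1S, 0.44 (SE 0.07, adjusted p = 1.39e-05) in OPM2 and 0.42 (SE 0.07, adjusted p = 5.33e-05) in RPMI-8226. OS9 and ATF6B kept their calls at an adjusted p under 0.05 in all 4 lines whichever single library was left out and under the other normalisations, filters, blocks and tools run, but in H929 alone were their rises at least 1.5-fold.

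SEL1L, the adaptor of the complex, differed between lines with the smallest p among the 44 genes (adjusted p = 7.35e-10). SEL1L counts were 837, 873 and 945 CPM with the IRF4 guide against 1311, 1287 and 1442 CPM with EV in H929. SEL1L in MM1S was 218, 193 and 178 CPM with the IRF4 guide against 515 and 482 CPM with EV, and in OPM2 it was 197, 212 and 208 CPM with the IRF4 guide against 402, 432 and 389 CPM with EV. In these lines the IRF4 guide libraries lay below all EV libraries. SEL1L in RPMI-8226 was 142, 119 and 129.6 CPM with the IRF4 guide against 134, 127 and 125 CPM with EV, with complete overlap. As log2 fold changes, the differences were -0.61 (SE 0.08, adjusted p = 6.82e-08) in H929, -1.34 (SE 0.09, adjusted p = 3.85e-12) in MM1S, -0.98 (SE 0.08, adjusted p = 2.32e-11) in OPM2 and 0.01 (SE 0.08, adjusted p = 0.937) in RPMI-8226. The RPMI-8226 effect exceeded the mean of the other lines by 0.99 (SE 0.09, adjusted p = 1.89e-09). RPMI-8226 also had the lowest SEL1L level with EV, 14.6 RPKM, the deposited scale of counts corrected for library total and gene length, against 131.9 RPKM in H929.

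DERL3, a derlin of secretory cells, had 273, 265 and 215 CPM with the IRF4 guide against 129, 126 and 131 CPM with EV in H929. DERL3 in MM1S was 262, 270.0 and 201 CPM with the IRF4 guide against 152 and 122 CPM with EV. DERL3 in OPM2 was 3.87, 4.86 and 4.40 CPM with the IRF4 guide against 8.69, 10.1 and 8.02 CPM with EV, from 116, 104 and 106 reads with the IRF4 guide and 234, 85 and 182 reads with EV. The IRF4 guide was above EV in H929 and MM1S and below it in OPM2, with no overlap. DERL3 in RPMI-8226 was 75.2, 78.2 and 62.3 CPM with the IRF4 guide against 66.0, 60.2 and 58.5 CPM with EV, with overlap. Fitted log2 fold changes were 0.96 (SE 0.11, adjusted p = 1.24e-08) in H929, 0.84 (SE 0.12, adjusted p = 5.57e-06) in MM1S, -1.01 (SE 0.16, adjusted p = 6.68e-06) in OPM2 and 0.22 (SE 0.11, adjusted p = 0.126) in RPMI-8226. The OPM2 effect minus the mean of the other lines was -1.68 (SE 0.17, adjusted p = 4.29e-08), the largest such difference of the 44 genes.

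Of the other degradation genes, EDEM1, which recognises trimmed glycans, was higher by 0.61 in H929, 0.58 in MM1S and 0.36 in RPMI-8226 on the log2 scale. EDEM2 was higher by 0.70 in H929 and 0.38 in MM1S, the second lost without EV replicate 2 (adjusted p = 0.150). HERPUD1, which organises the ligase complex, fell by 0.55 in OPM2, and by 0.30 in H929 and 0.34 in RPMI-8226, where the calls were each lost without 4 of 23 single libraries (adjusted p 0.0508 to 0.205 in H929 and 0.0825 to 0.136 in RPMI-8226), as they were with the deposited log2 RPKM. VCP, the ATPase that pulls chains from the membrane, fell in MM1S by 0.35, and EDEM3 there by 0.30. The EDEM3 call was lost without IRF4 replicate 2 or EV replicate 3 (adjusted p 0.0554 to 0.130). DERL1 fell in H929 by 0.20 and DERL2 by 0.30, both lost without EV replicate 1 (adjusted p = 0.0535 for DERL1 and 0.0542 for DERL2). The average of DERL1 was not called with the deposited log2 RPKM (0.210) or with no filter on low counts (0.0870). The lectin ERLEC1 was called in no line in the main fit. In H929 it was called lower with either replicate block or with H929 fitted alone (adjusted p 0.00726 to 0.0159). MM1S fitted alone also called it lower (0.0468). In RPMI-8226 it was called higher with the block shared by the lines (0.0493) and without IRF4 replicate 2 (0.00819).

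WFS1, an ER membrane protein that handles calcium and restrains ATF6, had 311, 353 and 304 CPM with the IRF4 guide against 144, 163 and 179 CPM with EV in H929. WFS1 in OPM2 was 196, 201 and 191 CPM with the IRF4 guide against 126, 153 and 140.4 CPM with EV, and in MM1S it was 65.0, 67.2 and 55.4 CPM with the IRF4 guide against 46.9 and 50.5 CPM with EV. In these lines the IRF4 guide libraries lay above all EV libraries. WFS1 in RPMI-8226 was 33.7, 36.9 and 27.6 CPM with the IRF4 guide against 34.4, 28.9 and 28.3 CPM with EV, with overlap. Log2 rises were 0.99 (SE 0.10, adjusted p = 4.63e-10) in H929, 0.49 (SE 0.10, adjusted p = 0.00014) in OPM2 and 0.37 (SE 0.12, adjusted p = 0.0179) in MM1S. The MM1S call was lost without IRF4 replicate 1 or 2 or EV replicate 2 (adjusted p 0.0589 to 0.166). PPP1R15A, the phosphatase subunit that lifts the translation block of PERK, was called higher in MM1S, at 0.43 (SE 0.15, adjusted p = 0.03), a call lost without IRF4 replicate 1 or EV replicate 3 (adjusted p 0.269 to 0.405). The MM1S call was also lost when replicate numbers were a block in every line (adjusted p = 0.100), with each line fitted alone (0.106) and with the deposited log2 RPKM (0.0609). In OPM2 it was 0.27 with adjusted p = 0.00480 with the replicate block.

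Counted over the 44 genes, OPM2 stood apart from the other lines. In OPM2, 23 genes were called lower (52.3%) and 5 higher (11.4%), against 20.2% and 23.3% of all genes. The median log2 fold change there was -0.39 against 0.03 over all genes. H929 had 17 called lower (38.6%) and 11 higher (25%), against 26.1% and 32.9%, with a median of -0.08 against 0.10. MM1S had 6 called lower (13.6%) and 9 higher (20.5%), near the shares of all genes, 15.2% and 19.4%. Its median was -0.02 against 0.07. RPMI-8226 had 9 called lower (20.5%) and 7 higher (15.9%), against 14.7% and 19.2%, with a median of -0.03 against 0.04. On the average of the lines 23 were lower (52.3%) and 10 higher (22.7%), against 25.1% and 32.6%, with a median of -0.09 against 0.11. On the deposited log2 RPKM scale these became 19 lower and 12 higher, where 5340 and 4594 of all 16220 genes were called. The share of called genes that were higher moved to 46.2% over all genes, against 56.5% from the counts. Medians of the 44 genes on that scale were -0.05 on the average and -0.29 in OPM2, against -0.03 and -0.08 over all genes. They were -0.04 against -0.07 in H929, -0.07 against -0.02 in MM1S and 0.04 against -0.02 in RPMI-8226. From the counts, with at least a 1.5-fold change required as well, OPM2 had 13 lower and none higher, against 6.43% and 15.5% of all genes. H929 had 6 lower and 7 higher (15.3% and 24% of all genes), and MM1S 1 and 2 (7.49% and 11.7%). RPMI-8226 had 2 lower and none higher (4.82% and 10.7%), and the average 2 and 1 (5.91% and 16.2%).

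With each line fitted alone, 14 genes were called lower in MM1S, against 6 in the main fit. Over all genes the numbers were 3208 and 2500. In RPMI-8226, 4 genes were called higher without IRF4 replicate 1, IRF4 replicate 3 or EV replicate 2. The shares of all genes in those fits are not given here. DNAJC3, FKBP2 and ERLEC1, 3 of the 44 genes, were called in no line in the main fit, as were 22% of all genes. Each was called in at least 1 line under some other setting.

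Taken as a share of the reads, the 44 genes made up 1.16% ± 0.0291 in OPM2 with the IRF4 guide and 1.46% ± 0.00645 with EV (SD, n = 3 each). In H929 the shares were 1.96% ± 0.0142 with the IRF4 guide and 2.22% ± 0.0619 with EV. In both lines each IRF4 guide library was below each EV library. RPMI-8226 had 1.42% ± 0.104 with the IRF4 guide and 1.46% ± 0.0574 with EV, which overlapped. MM1S had 1.63% ± 0.0962 (n = 3) with the IRF4 guide and 1.74% ± 0.0773 (n = 2) with EV, with each IRF4 guide library just below each EV library. In whole cultures fewer cells of a kind and less RNA per cell cannot be told apart.

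The difference of OPM2 from the mean of the other lines was tested gene by gene. Its effect was lower for 23 of the 44 genes and higher for none, where 6.01% of all genes were called lower and 6.39% higher. Those 23 were 4 of the 5 sensors and XBP1, 8 of the 14 chaperones, 7 of the 11 isomerases and 4 of the 12 degradation genes. OPM2, the line with the most genes called lower, had the smallest loss of IRF4 RNA, and the part of that loss in the result was not tested. Compared in the same way, H929 effects were higher for 10 genes and lower for 3, against 13.4% and 16.8% of all genes. MM1S effects were higher for 11 and lower for 5, against 10.3% and 9.83%, and RPMI-8226 effects were higher for 7 and lower for 4, against 12.6% and 12.3%. The 16 MM1S differences became 10 without IRF4 replicate 2 and 6 without EV replicate 3, of which the group has only 2.

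**Figure D3:**
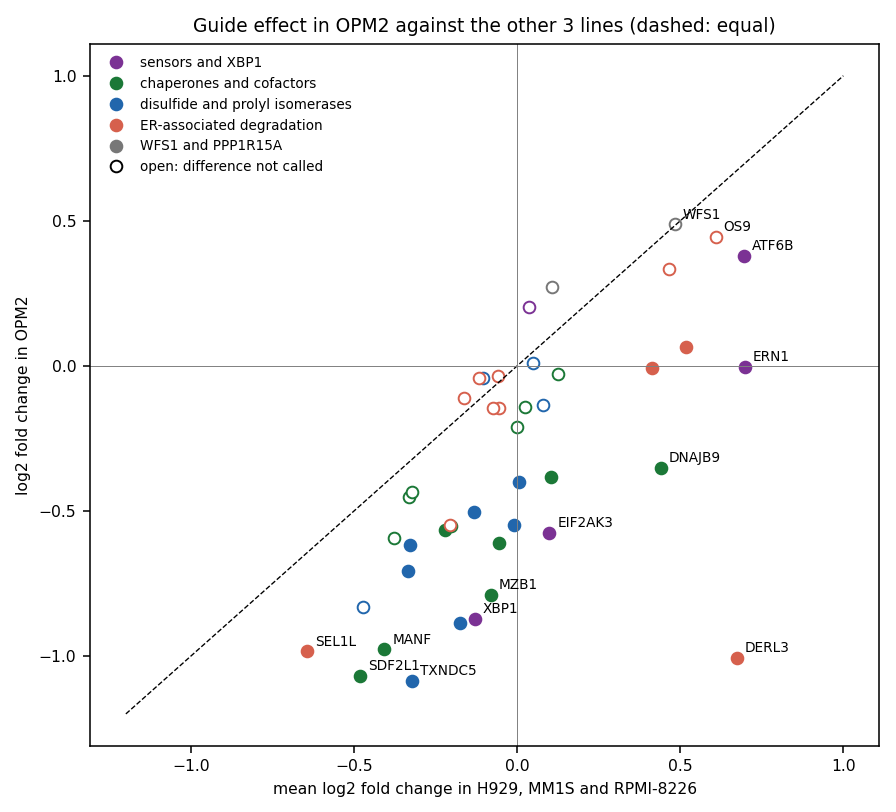
Log2 fold change in OPM2 (vertical) against the mean log2 fold change of H929, MM1S and RPMI-8226 (horizontal) for the 44 genes, coloured by role, filled where the difference was called; the dashed line marks equal values. Filled points all lie below the line, and DERL3 lies farthest from it.

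Genes with an ERSE or ERSE-II in the window were called lower in all 10 cases in OPM2 and in 8 of 10 in H929, with 2 in MM1S and 4 in RPMI-8226. None was called higher in any line. On the average 9 of the 10 were called lower. Among the other 31 genes with windows, 11 were called lower and 5 higher in OPM2, and 8 lower and 10 higher in H929. Over all genes tested, 20.2% were called lower and 23.3% higher in OPM2, and 26.1% lower and 32.9% higher in H929. The H929 counts of the 31 genes are near these shares. The shares lower and higher were 15.2% and 19.4% in MM1S, 14.7% and 19.2% in RPMI-8226, and 25.1% and 32.6% on the average. The median log2 fold change in OPM2 was -0.58 for the 10 and -0.14 for the 31. This is a description, since both sets belong to a list chosen with results known.

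**Figure D4:**
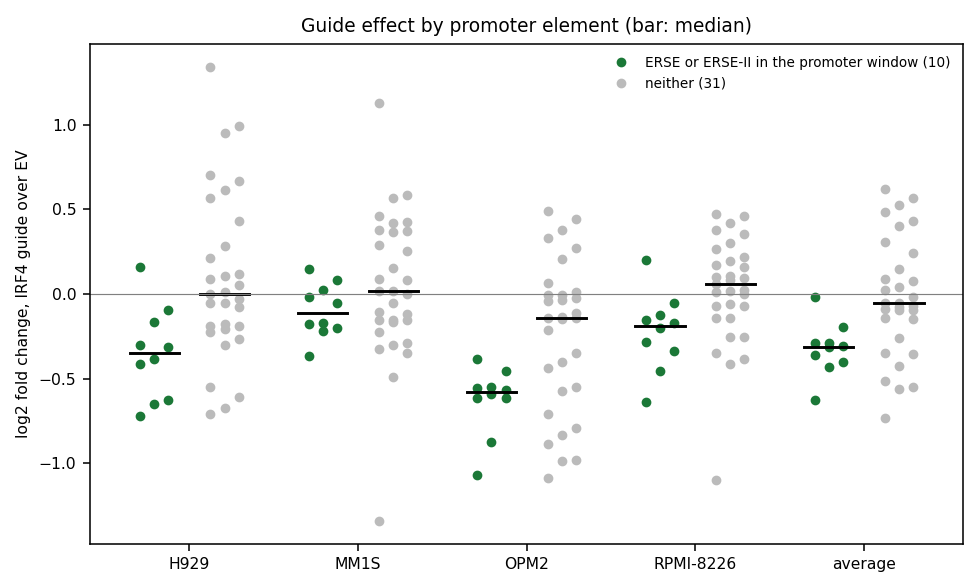
Log2 fold change by line for the 10 genes with an ERSE or ERSE-II in the promoter window (green) and the other 31 genes with windows (grey); each point is a gene and the bar is the median. All 10 green points lie below 0 in OPM2.

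The levels of all 44 genes with EV differed between the lines by the F test, as did 93.1% of all genes. The comparison rests on the deposited log2 RPKM, which corrects for length, given back on the linear scale as the geometric mean. XBP1 ranged from 228 RPKM in RPMI-8226 to 1486 RPKM in H929, with 342 RPKM in MM1S and 1069 RPKM in OPM2. HSP90B1 was the highest in MM1S at 810 RPKM, and CALR in RPMI-8226 at 549 RPKM. The widest spread was that of DERL3, 12.7-fold between MM1S and OPM2 (39.6 and 3.13 RPKM), then PPP1R15A, 10.7-fold between H929 and RPMI-8226 (27.1 and 2.53 RPKM). The narrowest was PDIA3, 1.28-fold. The median spread was 2.49-fold, and 20 of the 44 genes were lowest in OPM2 and 16 in RPMI-8226.

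**Figure D5:**
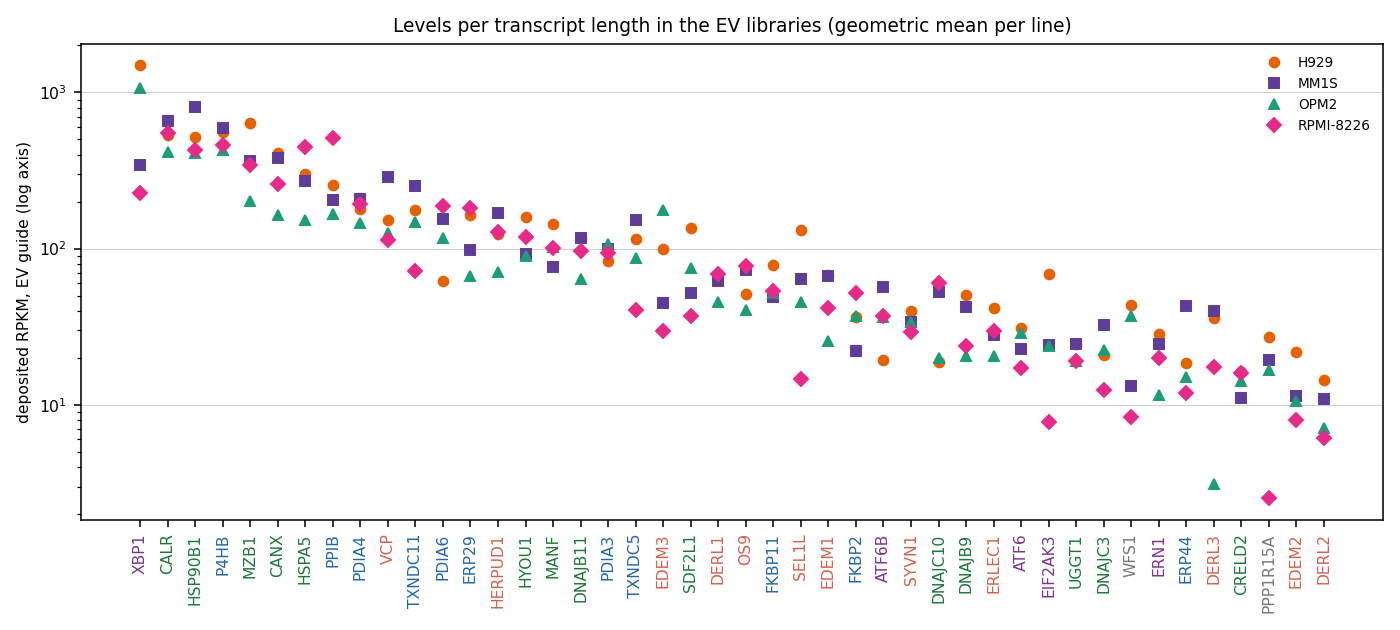
Deposited RPKM (log axis) of the 44 genes in the EV libraries, as the geometric mean of each line, ordered by their mean; label colours give the role. XBP1 differs by 6.53-fold between H929 and RPMI-8226, while P4HB and CALR stay within 1.58-fold.

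The other 51 genes of the pathway, in lists of signalling, folding and degradation, gave the following counts. In OPM2, 20 were called lower (39.2%) and 6 higher (11.8%), against 20.2% and 23.3% of all genes. For 6 (11.8%) the OPM2 effect was lower than the mean of the other lines and for 1 (1.96%) higher, against 6.01% and 6.39%. H929 had 20 lower (39.2%) and 11 higher (21.6%), against 26.1% and 32.9%. MM1S had 12 (23.5%) and 10 (19.6%), against 15.2% and 19.4%, and RPMI-8226 10 (19.6%) and 8 (15.7%), against 14.7% and 19.2%. On the average 22 were lower (43.1%) and 11 higher (21.6%), against 25.1% and 32.6%. In the signalling list, 7 of 15 were lower and 3 higher on the average. The largest called falls on the average were CHAC1, a target of the PERK branch, at -1.30 (SE 0.39, adjusted p = 0.00866), and ERLIN1, a partner of membrane ubiquitin ligases, at -0.83 (SE 0.06, adjusted p = 8.97e-14). The largest rises were ERO1B, an ER oxidase, at 0.93 (SE 0.12, adjusted p = 4.79e-08), and HERPUD2, a relative of HERPUD1, at 0.67 (SE 0.07, adjusted p = 3.57e-10).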

How the data were processed

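Per the labels' protocols, RNA was purified with an RNeasy Plus Mini Kit and made into sequencing libraries by TruSeq RNA chemistry. The authors deposited raw counts per gene and log2 RPKM per library; Subread, featureCounts and limma and the GRCh38 (hg38) genome are named in the submitters' processing notes, without versions or settings. The strand setting of the counting is not given in the sources used here. Of the count rows, 490 carried no symbol. They were kept in the library totals and went through the same filter as the other rows.

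Counts were filtered with filterByExpr (16468 of 28395 genes kept), scaled by TMM (factors 0.914 to 1.08) and fitted in edgeR 4.0.16 (R 4.3.3) with robust quasi-likelihood and a mean for each of the 8 groups, all 23 libraries sharing one estimate of the spread. Each line, the average of the lines, each line minus the mean of the others and an F test over lines were contrasts, called at a Benjamini-Hochberg adjusted p under 0.05. SE is the log2 fold change over the root of F. Deposited log2 RPKM (16220 genes) gave levels per length and, with limma 3.58.1, an alternative; DESeq2 1.42.0 was another. The fit was also run on counts simulated from its own estimates of spread. These were drawn without any effect of the replicate number, so they cannot judge a fit that leaves it out. Replicates correlated at 0.988 to 0.995, and none agreed within sampling noise.

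Same-numbered OPM2 libraries deviated together, with correlations of 0.183, 0.144 and 0.175, so the numbers pair them by the data. In each other line at least 1 pair was under 0.1. The best-matching EV library was still the same-numbered one for all 11 pairs of the 4 lines. Between lines, the median correlation was 0.062 for the same number and -0.026 for other numbers. The main contrasts carry no term for the number in any line, and fits with it as a block are given as alternatives. With a replicate block within each line, 23 of 225 guide effects (per gene, in each line and on the average) gained a call and 1 lost it. A gene said to be called or not called, with no setting named, was so in the fit without a block. The gene set and lists were chosen with earlier results of these data known. Genes given per library are IRF4, XBP1, the sensors, HSPA5, those called alike in all 4 lines or in opposite directions, the largest rise and fall in each role group on the average, and the 6 whose effects differed between lines with the lowest p; other genes are given by counts and values. Of the other pathway genes, the 2 largest called rises and falls were named.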

Additional observations from a re-analysis of the deposited data

Results flagged for a closer look

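The guide effect differed between the 4 lines for 33 of the 44 genes, in a test of the difference itself (edgeR's quasi-likelihood F test on the line-by-guide contrasts, 3 degrees of freedom, adjusted over all 16468 genes), against 48% of all genes. Among the sensors and XBP1 the adjusted p was 5.77e-07 for XBP1, 5.77e-05 for EIF2AK3, 0.000728 for ERN1 and 2.68e-08 for ATF6B.

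Of the chaperones and their cofactors, 12 of 14 differed. The adjusted p was 1.37e-05 for CANX, 2.35e-05 for MZB1, 6.07e-05 for DNAJC10, 0.000473 for HYOU1, 0.00128 for SDF2L1 and 0.00217 for MANF. For the remaining 6 it came to 0.00595 for HSP90B1, 0.00655 for CRELD2, 0.00966 for HSPA5, 0.0104 for UGGT1, 0.0235 for CALR and 0.0307 for DNAJB9.

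Of the isomerases, 10 of 11 differed. Their adjusted p was 2.36e-08 for TXNDC5, 3.07e-05 for PDIA4, 4.96e-05 for TXNDC11, 0.000315 for ERP29 and 0.000614 for PPIB, and beyond these 0.00206 for P4HB, 0.00208 for PDIA6, 0.0152 for PDIA3, 0.0254 for ERP44 and 0.0477 for FKBP11. Among the degradation genes and WFS1 it was 7.35e-10 for SEL1L, 1.08e-08 for DERL3, 5.42e-05 for WFS1, 0.000157 for OS9, 0.00051 for EDEM2, 0.00348 for EDEM1 and 0.0265 for EDEM3.

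The genes with the smallest values differed in separate ways. SEL1L was called lower in 3 lines and was at 0.01 on the log2 scale in RPMI-8226. DERL3 was higher in H929 and MM1S and lower in OPM2, TXNDC5 was higher in H929 and lower in OPM2 and RPMI-8226, and ATF6B was higher in every line with the largest rise in H929. The part of the smaller IRF4 RNA reduction in OPM2 in these differences was not tested.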

How the results depend on the processing

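No direction of a called value reversed. Of 1530 values under other settings, 1410 kept direction and side of the threshold, 42 lost the call and 78 gained one; leaving out 1 library at a time cost 27 results a call. Requiring at least a 1.5-fold change left 7 genes higher and 6 lower in H929, 2 and 1 in MM1S, 0 and 13 in OPM2, 0 and 2 in RPMI-8226, and 1 and 2 on the average, read against the shares of all genes given in the results. Genes called lower in MM1S numbered 11 with a replicate block within each line and 14 with each line fitted alone. Over all genes, 2820 and 3208 were called lower under these settings, against 2500 in the main fit. The replicate block within each line also gave 21 genes for H929 against the other lines and 21 for RPMI-8226 against the others. Shares of all genes are not given for these, nor for the fits below that leave out 1 library. In OPM2 the block added 4 calls, given in the results beside DNAJB9, DNAJC3, UGGT1 and PPP1R15A, and removed none. Leaving out 1 library at a time, the genes higher in RPMI-8226 ranged from 4 to 10 and those differing in MM1S from 6 to 19. A replicate block shared by the lines also cost DNAJB9 its calls in H929, RPMI-8226 and on the average, HERPUD1 its calls in H929 and RPMI-8226, and TXNDC5 its call in H929. The causes were not tested. With TMM the median of all genes on the average was 0.11, and with the deposited log2 RPKM it was -0.03. Depth limits DERL3 in OPM2, which rests on 85 to 234 reads a library.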
